A study of Mus musculus with 4 samples.

Results

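The SOCS genes, Cish, Pim1 and Pim3 are genes that JAK-STAT signalling switches on or that act on it, and 10 of them were examined among the 54532 genes of the deposited expression table. They were chosen by family and by name, with earlier results of these data known. Socs1 to Socs7 and Cish make up the SOCS family of 8 genes, and Pim1 and Pim3 are 2 kinase genes described as induced by STAT proteins. Gene expression had been measured by RNA sequencing of total RNA in 4 libraries of mouse CB6F1 bone marrow cells that the labels call MSCs, grown in culture after digestion of whole marrow. CB6F1 is an F1 hybrid laboratory mouse strain. The 2 R libraries were made from cells treated in culture with 0.5 µM (written "um" in the labels) of an agent named only R, and the 2 vehicle libraries from cells treated with the solvent DMSO. All 4 sample titles carry the term aGVHD, so no group without it was compared. Animals, age and sex of the source mice were not given in the sources used here. Since no label says whether replicates were separate cultures or animals, the p-values cover the spread among these libraries alone, which may be technical.

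In JAK-STAT signalling a cytokine receptor activates Janus kinases (JAKs), which phosphorylate STAT transcription factors, and STAT proteins then switch on target genes. The SOCS genes are among these targets in many cell types. Their proteins carry an SH2 domain that binds phosphorylated tyrosines and a SOCS box that recruits a ubiquitin ligase, so that they close a negative feedback loop. Pim kinases are serine and threonine kinases that promote survival and growth, and STAT proteins induce Pim1 in blood cells.

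The values were FPKM, fragment numbers scaled to exon length and library size. Recovered whole reads summed to between 16570419 and 18140519 per library. The label MSCs was checked against marker lists. Among the 15 stromal markers, summed levels were 2140 and 2220 FPKM in R and 1770 and 1760 FPKM in vehicle. The 15 macrophage and monocyte markers summed to 15500 and 11900 FPKM in R and to 23300 and 20700 FPKM in vehicle, so the libraries also held abundant macrophage transcripts. All 15 of these had log2 fold changes below 0 and 3 were called lower, where 1.37% of all tested genes were. Of 13 tested stromal markers 3 had log2 fold changes below 0, 1 was called lower and 0 higher. Markers of neutrophils, T and NK cells, B cells, erythroid cells and endothelium summed to at most 9.06 FPKM in any library. Listed at 0 in all 4 were 4 of 8 neutrophil markers, among them Ly6g, Elane and Mpo, and 5 of 8 T and NK cell markers, among them Cd3e and Cd8a. The same held for 1 of 5 B cell, 1 of 6 erythroid and 0 of 5 endothelial markers. In such bulk libraries, fewer cells of a type and less RNA per cell cannot be told apart.

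Promoter sequences are shown for 4 of the genes because STAT and interferon regulatory factors are described as acting at such sites. RefSeq (GRCm38.p6) windows from 250 bases before to 50 bases after the RefSeq start of the gene were matched by symbol for 6 genes, Socs1, Socs3, Socs4, Cish, Pim1 and Pim3, with 2 windows for Pim1. Socs2, Socs5, Socs6 and Socs7 are named only. The letters TTCNNNGAA, a core STAT motif that reads the same on both strands, occurred in 8.298% of 32851 windows of all genes. The same motif with a spacer of 4 bases, TTCNNNNGAA, occurred in 6.953% and in no window of these 6 genes. The letters GAAANNGAAA (TTTCNNTTTC on the other strand), part of the motif of interferon regulatory factors, occurred in 3.443%. Below, capitals mark these matches, read 5′ to 3′ on the strand of the gene. The Cish run, chr9:107296409-107296678 on the plus strand, stops 20 bases after the RefSeq start. The other runs stop at it. Pim1 is chr17:29490535-29490784 on the plus strand, Socs1 is chr16:10785537-10785786 on the minus strand and Socs3 is chr11:117969367-117969616 on the minus strand.
Cish: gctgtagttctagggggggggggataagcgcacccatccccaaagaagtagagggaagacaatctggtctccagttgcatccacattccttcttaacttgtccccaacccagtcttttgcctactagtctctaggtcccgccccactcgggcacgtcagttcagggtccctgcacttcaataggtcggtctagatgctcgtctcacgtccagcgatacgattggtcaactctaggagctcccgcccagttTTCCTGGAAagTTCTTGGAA
Pim1: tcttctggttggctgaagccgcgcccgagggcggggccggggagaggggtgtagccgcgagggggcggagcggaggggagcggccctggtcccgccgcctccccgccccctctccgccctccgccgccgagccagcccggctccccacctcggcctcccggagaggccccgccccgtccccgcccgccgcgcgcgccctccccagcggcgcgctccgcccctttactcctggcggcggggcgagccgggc
Socs1: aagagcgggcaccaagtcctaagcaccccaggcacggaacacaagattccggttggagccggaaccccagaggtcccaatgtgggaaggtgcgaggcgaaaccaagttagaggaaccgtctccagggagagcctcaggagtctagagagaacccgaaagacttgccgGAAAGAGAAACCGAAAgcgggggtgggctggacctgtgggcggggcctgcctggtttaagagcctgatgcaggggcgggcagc
Socs3: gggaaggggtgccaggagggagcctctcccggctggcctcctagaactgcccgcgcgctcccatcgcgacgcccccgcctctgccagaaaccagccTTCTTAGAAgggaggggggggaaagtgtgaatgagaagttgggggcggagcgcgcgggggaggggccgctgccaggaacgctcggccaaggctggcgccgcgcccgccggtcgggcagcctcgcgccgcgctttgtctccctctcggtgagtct

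Positions were counted from the RefSeq start, which can differ from the start of the gene in the GENCODE annotation used for coordinates and lengths. The RefSeq start lies inside the GENCODE gene by 633 bases for Cish, 681 for Socs3 and 32 for the Pim1 window shown, and is the same base for Socs1. The Cish and Socs3 runs shown thus lie wholly within their GENCODE genes. Cish held 2 STAT matches, starting at bases 1 and 12 from the RefSeq start. Socs3 held 1, starting 154 bases before it (-154). Socs1 held 2 overlapping matches to the interferon regulatory factor letters, starting at -83 and -77, and no STAT match. None of the 3 motifs was found in the windows of Pim1, Pim3 and Socs4. A match is a run of letters, not a shown binding site, and its absence concerns only these windows.

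Whether R was accompanied by other levels of feedback genes was asked by comparing the R with the vehicle libraries. Pim1 fell in R to 0.522 times its vehicle mean and was 1 of 10 genes past the threshold, with no other. Socs2 and Cish, at lower levels, had R means of 0.426 and 0.526 times the vehicle means and did not pass it. Socs3, the most abundant of the 10, had an R mean of 0.876 times the vehicle mean, and Pim3 and Socs1 had higher means in R without passing the threshold. In each gene the values were tested as log2(FPKM + 1) with limma, and p-values were Benjamini-Hochberg adjusted over the 12176 genes that averaged 1 FPKM or more, with a call at an adjusted p under 0.05. All 10 genes met this minimum. Of all tested genes 1.72% were called, 1.37% lower and 0.345% higher, and of the 10 genes 1 was called lower and 0 higher.

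**Figure D1:**
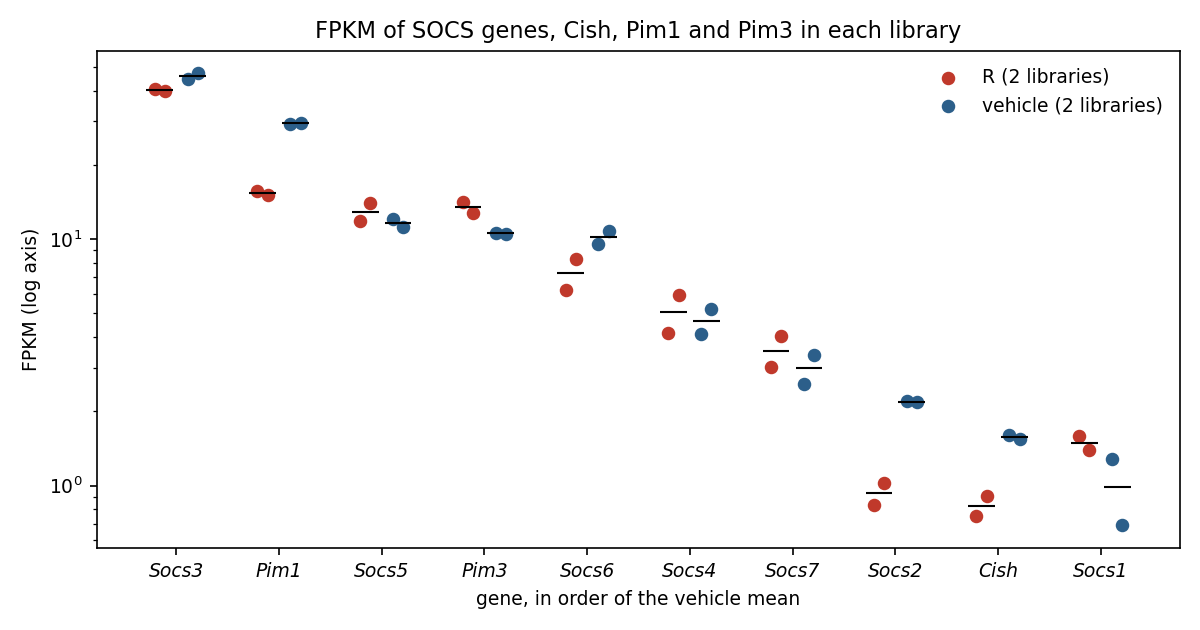
FPKM (log axis) of the 10 genes in each library, with R in red left of vehicle in blue. Each point is a library and each black line the mean of 2. Pim1, Socs2 and Cish show the widest gaps between the groups, while Socs4, Socs5 and Socs7 overlap.

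Socs1 and Socs3 encode the SOCS proteins best known for direct inhibition of JAKs, Socs1 mainly downstream of interferon receptors and Socs3 downstream of receptors that use gp130. Socs3 was at 40.45 and 39.73 FPKM in R and at 44.48 and 47.02 FPKM in vehicle. Both R libraries lay below both vehicle libraries, by a small margin. Its log2 fold change was -0.19 (SE 0.121, 95% interval -0.48 to 0.11; limma, Benjamini-Hochberg adjusted p = 0.524). Socs1 was at 1.586 and 1.388 FPKM in R and at 1.287 and 0.69 FPKM in vehicle, resting on 89 and 73 reads in R and on 66 and 36 in vehicle. Both R libraries were higher, and the 2 vehicle values lay further apart than the nearest R and vehicle values did. The log2 fold change was 0.34 (SE 0.197, 95% interval -0.15 to 0.82), not past the threshold with limma's Benjamini-Hochberg adjusted p = 0.475. Without vehicle replicate 2, the library with the fewest Socs1 reads, the log2 fold change was 0.12. The Socs1 level was 0.0392 and 0.0349 times that of Socs3 in R, against 0.0289 and 0.0147 times in vehicle.

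Cish and Socs2 encode close relatives in the family that bind receptors activating STAT5, such as those for growth hormone and erythropoietin. Socs2 is known to restrain growth hormone signalling in mice. Socs2 was at 0.8372 and 1.027 FPKM in R and at 2.195 and 2.181 FPKM in vehicle, from 154 and 177 reads in R and 369 and 373 reads in vehicle. The groups did not overlap and the gap between them exceeded the difference between replicates. The log2 fold change of -0.72 (SE 0.147, 95% interval -1.09 to -0.36) gave an unadjusted p = 0.00284 and did not pass after Benjamini-Hochberg adjustment in limma (adjusted p = 0.0873). Adding 1 FPKM understates differences at these levels. With 0.1 FPKM added in its place the log2 fold change was -1.15, again not past the threshold (limma, Benjamini-Hochberg adjusted p = 0.0997). Socs2 was called lower in 2 of 10 alternatives without a replicate block. These were limma's voom on recovered reads, with -1.24 (Benjamini-Hochberg adjusted p = 0.0138), and a correction for a trend with gene length (limma, adjusted p = 0.0435). In the other 8 the adjusted p in limma ran from 0.0557 to 0.26.

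Cish was at 0.7507 and 0.9042 FPKM in R and at 1.599 and 1.545 FPKM in vehicle, from 93 and 105 reads in R and 181 and 178 reads in vehicle. Both R libraries lay below both vehicle libraries. Its log2 fold change was -0.49 (SE 0.151, 95% interval -0.87 to -0.12), at an unadjusted p = 0.0177 and limma's Benjamini-Hochberg adjusted p = 0.197. With voom on recovered reads it was -0.93, again not past the threshold (Benjamini-Hochberg adjusted p = 0.0682). Exons of Cish overlap those of Gm17041 and Gm17040 on the other strand. The first of these was listed at 0 in all libraries and the second reached at most 0.1442 FPKM. Whether reads were counted by strand is not given in the sources used here. The ligand genes Gh, Prl, Epo and Csf2, whose receptors signal through STAT5, were listed at 0 in all 4 libraries. Other ligand genes were not, such as Thpo, at 0.3155 and 0.1262 FPKM in R and 0.2157 and 0.4878 FPKM in vehicle.

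Socs4, Socs5, Socs6 and Socs7 encode the long members of the family, which have extended regions before the SH2 domain. Socs4 and Socs5 are linked to the epidermal growth factor receptor, and Socs6 and Socs7 to signalling by insulin and other receptor tyrosine kinases. Socs6 was at 6.237 and 8.32 FPKM in R and at 9.581 and 10.8 FPKM in vehicle. Both R libraries were lower and the log2 fold change was -0.44 (SE 0.162, 95% interval -0.84 to -0.04; limma, Benjamini-Hochberg adjusted p = 0.264). Without R replicate 2 it was -0.63 and without R replicate 1 it was -0.26. Without vehicle replicate 1 it was -0.52 and without vehicle replicate 2 it was -0.37.

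Socs5 was at 11.87 and 13.98 FPKM in R and at 12.02 and 11.18 FPKM in vehicle. Socs4 was at 4.174 and 5.916 FPKM in R and at 4.105 and 5.187 FPKM in vehicle. In both genes the groups overlapped. Socs7 also overlapped, with 3.017 and 4.025 FPKM in R and 2.583 and 3.391 FPKM in vehicle. The log2 fold changes of Socs5, Socs4 and Socs7 were 0.14, 0.09 and 0.18, with 95% intervals of -0.19 to 0.47, -0.37 to 0.55 and -0.26 to 0.62. The intervals include differences in either direction. With 1 library left out the log2 fold change ran from 0.03 to 0.25 for Socs5, from -0.12 to 0.30 for Socs4 and from 0.02 to 0.34 for Socs7.

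Pim1 and Pim3 encode closely related kinases that share many substrates. Pim1 was at 15.69 and 15.11 FPKM in R and at 29.27 and 29.7 FPKM in vehicle. The replicates lay close together and the groups far apart. Pim1 fell by 0.89 on the log2 scale (SE 0.115, 95% interval -1.18 to -0.61; limma, Benjamini-Hochberg adjusted p = 0.0253), which is 1.92-fold lower on the FPKM scale. In the same limma test the call was lost without vehicle replicate 1 (Benjamini-Hochberg adjusted p = 0.0905) or vehicle replicate 2 (adjusted p = 0.0758). On the TPM scale, where each library sums to the same total, it was also lost (limma, adjusted p = 0.0548), as it was without a filter on low values (limma, adjusted p = 0.1). The log2 fold change stayed between -0.94 and -0.79 in the 11 alternatives without a replicate block. Exons of Pim1 overlap those of the antisense gene Gm26885, which reached at most 0.1321 FPKM.

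Pim3 was at 14.11 and 12.78 FPKM in R and at 10.63 and 10.49 FPKM in vehicle. Both R libraries were higher, and the log2 fold change of 0.32 (SE 0.119, 95% interval 0.03 to 0.61) did not pass the threshold (limma, Benjamini-Hochberg adjusted p = 0.275). Within each library, where a common scaling cancels, the Pim1 level was 1.11 and 1.18 times that of Pim3 in R and 2.75 and 2.83 times in vehicle. The ratio in both R libraries was below that in both vehicle libraries. Pim2, the third kinase of the family, was at 1.724 and 1.365 FPKM in R and at 2.089 and 1.715 FPKM in vehicle, with overlapping groups.

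**Figure D2:**
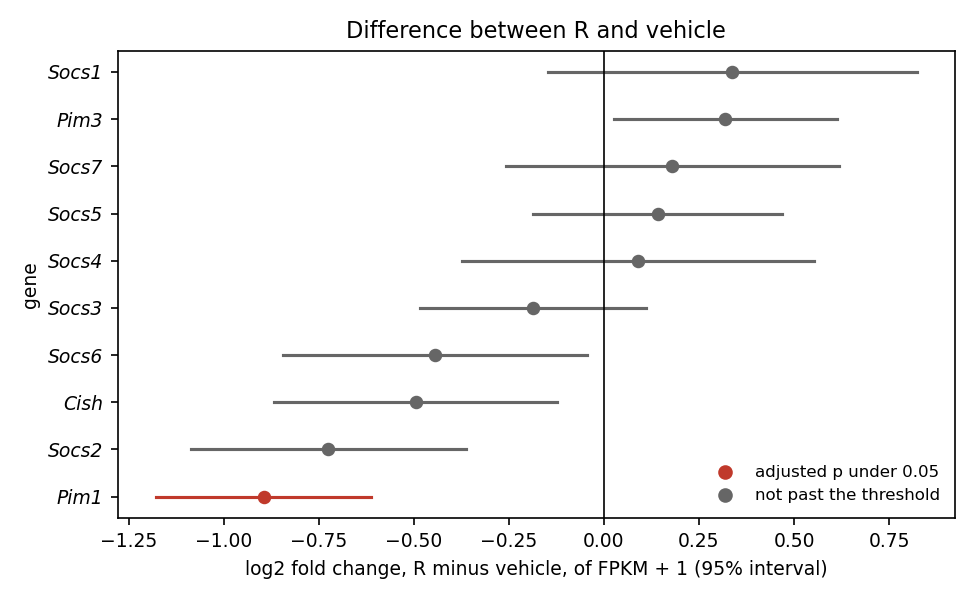
Log2 fold changes of the 10 genes, R minus vehicle, on the log2(FPKM + 1) scale, with points for estimates and lines for 95% intervals from the limma fit. Pim1, in red, is past the adjusted threshold. The intervals of Socs2, Cish, Socs6 and Pim3 leave out 0 before adjustment and the other 5 include it.

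Ordered by level, Socs3 and Pim1 came first and second of the 10 genes in both groups. In R the means then ran through Pim3, Socs5, Socs6, Socs4, Socs7, Socs1, Socs2 and Cish. Pim3 and Socs5 overlapped in R, as did Socs2 and Cish, and other neighbours did not. In vehicle the order after Pim1 was Socs5, Pim3, Socs6, Socs4, Socs7, Socs2, Cish and Socs1, where only Pim3 and Socs6 among neighbours overlapped. Socs1 thus ranked above Socs2 and Cish in R and below both in vehicle, on a scale divided by exon length. In reads, Socs1 was below both in R too, at 89 and 73 against 93 and 105 for Cish and 154 and 177 for Socs2.

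The groups did not overlap in 7 of the 10 genes, R below in 5 and above in 2. Among all tested genes they did not overlap in 47.9%, with R below in 25.2% and above in 22.7%. An unadjusted p under 0.05 was found for 5 of the 10 genes and for 16% of all tested genes, 1947 of 12176. The median log2 fold change of the 10 genes was -0.05 and that of all tested genes 0.00. The 8 SOCS family genes divided evenly in sign, 4 above 0 and 4 below.

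The 10 genes also differed between the R replicates in a way that went with length. In the annotation, Pim3, Socs3, Socs1 and Pim1 have 2427 to 3362 bases of exon and the other 6 genes have 6416 to 11349. All 4 short genes were lower in R replicate 2 than in R replicate 1, with differences from -0.13 to -0.03 on the log2(FPKM + 1) scale. All 6 long genes were higher in R replicate 2, with differences from 0.12 for Cish to 0.42 for Socs4. Of all tested genes, R replicate 2 was the higher in 26.0% of those under 4000 bases and in 78.9% of those over 6000 bases. Between vehicle replicates 2 and 1, 3 of the 6 long genes were higher, and among all tested genes 71.3% of those over 6000 bases. Within the 6 long genes the differences between R replicates did not follow the order of length. Socs4, with 6877 bases, had 0.42 and Socs2, with 9531, had 0.14. The cause of the spread was not tested. With the length trend removed, Socs2 was past the threshold as given above, Socs6 was not (limma, Benjamini-Hochberg adjusted p = 0.0615), and Pim1 remained lower (adjusted p = 0.0128).

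**Figure D3:**
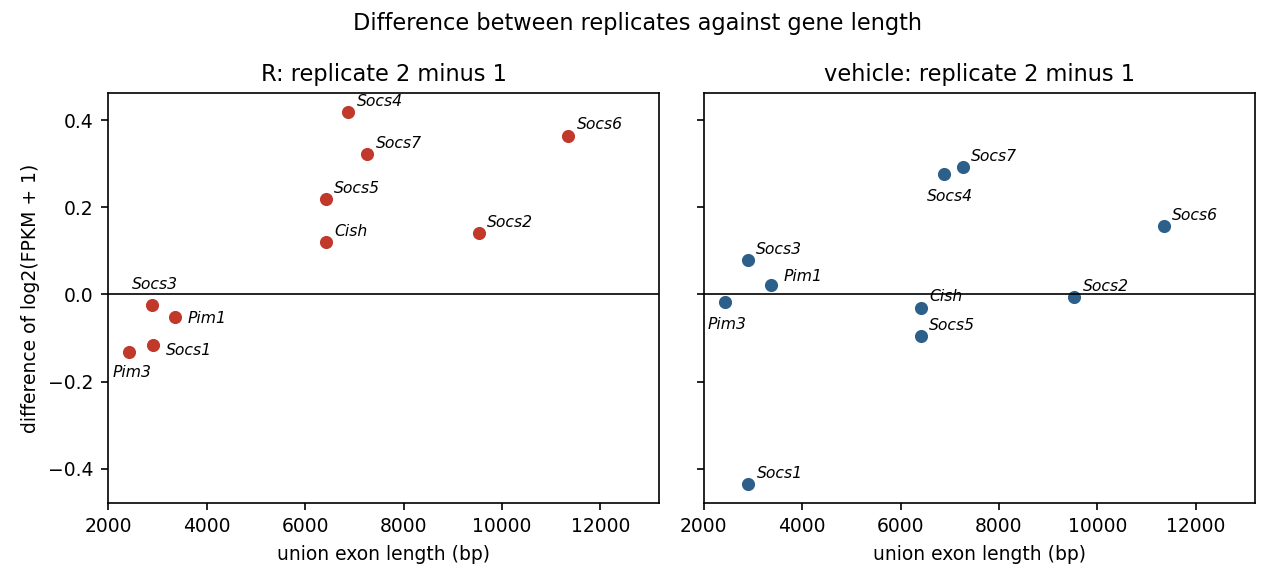
Difference between replicates 2 and 1 on the log2(FPKM + 1) scale against union exon length in bp, for R (left) and vehicle (right). Each point is 1 of the 10 genes. In R the 4 short genes lie below 0 and the 6 long genes above it.

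The pathway around these genes was described with further lists. Of 121 other genes 99 were tested, of which 14 fell and 0 rose in R, 14.1% called lower against 1.37% of all tested genes. These lists were also chosen with earlier results of these data known, so the contrast is not an independent test. Of the 99 genes, 68 had log2 fold changes below 0, where 50% of all tested genes did. The macrophage markers, whose sums are given above, were lower in the same libraries, and their part in these results was not tested.

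A list of ubiquitin ligase partners of SOCS box proteins, which held both Cul5 and Cul2, showed no called gene. Of 8 tested genes 0 were called, all 8 had log2 fold changes below 0, from -0.34 to -0.10, and the median was -0.14. Both R libraries lay below both vehicle libraries in 3 of the 8, as in 25.2% of all tested genes. Ube2f, a NEDD8-conjugating enzyme that acts on cullin 5, was at 5.52 and 5.276 FPKM in R and at 7.418 and 6.807 FPKM in vehicle (limma, Benjamini-Hochberg adjusted p = 0.251). Cul2, a cullin scaffold, had a log2 fold change of -0.20. Among 12 tested genes of other SOCS box proteins 0 were called and the median was 0.05. The smallest p-values there belonged to Asb4 and Spsb3, with log2 fold changes of 0.42 and 0.28.

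The genes that fell among the JAK kinases and STAT transcription factors included Jak3 and Stat2. Jak3, the kinase paired with the common gamma chain, was at 5.364 and 4.441 FPKM in R and at 10.62 and 10.31 FPKM in vehicle (limma, Benjamini-Hochberg adjusted p = 0.0325). It was 1 of 4 tested JAK genes, and Jak2 had a log2 fold change of -0.25. Stat2, a subunit of the complex that answers type I interferon, was at 4.381 and 3.964 FPKM in R and at 13.3 and 12.09 FPKM in vehicle (adjusted p = 0.00763 in limma). The 6 tested STAT genes had a median log2 fold change of -0.36.

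Among 15 tested genes of other negative regulators 1 fell. Usp18, which removes ISG15 and blocks the type I interferon receptor, was at 0.39 and 0.4359 FPKM in R and at 5.121 and 5.094 FPKM in vehicle. Its log2 fold change was -2.11 (SE 0.135; limma, Benjamini-Hochberg adjusted p = 0.00293). Ptpn1, a tyrosine phosphatase that acts on JAKs, was at 23.86 and 23.33 FPKM in R and at 38.14 and 36.78 FPKM in vehicle and did not pass (limma, Benjamini-Hochberg adjusted p = 0.0648). Leaving the replicate block aside, 4 of the 11 alternatives called Ptpn1 lower. These included fits with 1 R library left out. Its log2 fold change ran from -0.67 to -0.62 with 1 library left out. Ptpn1 did not pass on the TPM scale (limma, Benjamini-Hochberg adjusted p = 0.116).

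Of 21 tested cytokine, hormone and growth factor receptors 4 fell and 0 rose. These were Osmr, the oncostatin M receptor subunit, Il4ra, Csf2rb, the common beta chain of the GM-CSF receptor, and Csf3r, the G-CSF receptor, with log2 fold changes of -1.06, -0.98, -0.76 and -0.75. Without vehicle replicate 1 the limma calls of Il4ra, Csf2rb and Csf3r were lost, with Benjamini-Hochberg adjusted p-values of 0.106, 0.139 and 0.317. Without vehicle replicate 2 the same 3 calls were lost, with limma's adjusted p-values at 0.0597, 0.225 and 0.13. On the TPM scale the calls of Osmr, Csf2rb and Csf3r were lost, with limma's adjusted p-values at 0.0842, 0.103 and 0.0863. Of 20 ligand genes 7 were tested and 0 called, and 8 were listed at 0 in all libraries. Il10 and Il4 had the smallest p-values, at -0.86 and -0.68 on the log2 scale. Neither passed in limma, with Benjamini-Hochberg adjusted p-values of 0.0516 and 0.0705. With 1 library left out the log2 fold change ran from -0.97 to -0.75 for Il10 and from -0.74 to -0.62 for Il4.

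Of 25 other genes described as STAT targets, 6 fell and 0 rose, with a median of -0.34. Isg15, an interferon-induced ubiquitin-like protein, was at 5.072 and 4.533 FPKM in R and at 37.42 and 34.13 FPKM in vehicle. Irf9, a DNA-binding partner of STAT2, fell by 1.55 on the log2 scale, and Gbp2, an interferon-induced GTPase, by 1.02. Saa3 and Fgl2, an acute phase protein and a fibrinogen-like protein, fell as well, with log2 fold changes of -1.52 and -1.46. On the FPKM scale they were 6.39-fold and 4.05-fold lower in R, where Saa3 was at 0.5766 and 0.5091 FPKM. The sixth gene was Bcl3, a nuclear cofactor of NF-kB, with -0.96. On the TPM scale the calls of Fgl2 and Gbp2 were lost, with Benjamini-Hochberg adjusted p-values of 0.0645 and 0.0576 in limma.

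**Figure D4:**
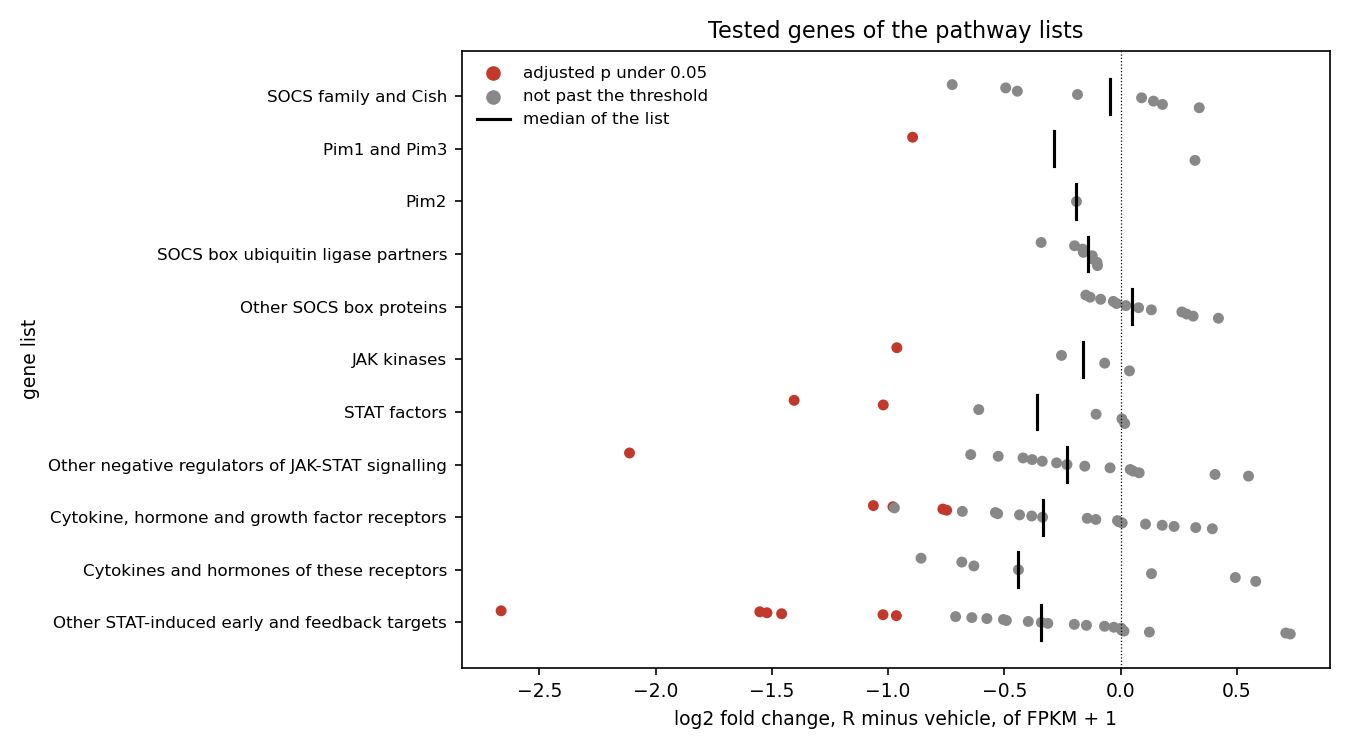
Log2 fold changes, R minus vehicle, on the log2(FPKM + 1) scale for the tested genes of each list. Each point is a gene, red where called lower, and black bars are list medians. The called genes lie at -0.75 or below, Pim1 among them at -0.89, and no gene is called higher.

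The 3 tested genes whose values over the 4 libraries were most like those of Pim1 were Cxcl10, Mcoln2 and Bcl3. Their Euclidean distances to Pim1 in centred log2(FPKM + 1) were 0.037, 0.0743 and 0.0946. Cxcl10, a chemokine, was at 1.427 and 1.276 FPKM in R and at 3.424 and 3.415 FPKM in vehicle. Mcoln2, a cation channel of the mucolipin family, was at 5.768 and 5.733 FPKM in R and at 11.26 and 12.24 FPKM in vehicle. With 4 libraries in 2 groups, such likeness mainly restates a similar difference between groups on the log2(FPKM + 1) scale. On the FPKM scale Cxcl10 was 2.53-fold lower in R and Pim1 1.92-fold lower.

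In the GRCm38 annotation of GENCODE M21, Pim1 (ENSMUSG00000024014) spans positions 29490753 to 29496112 of chromosome 17 and Pim3 (ENSMUSG00000035828) positions 88862186 to 88865726 of chromosome 15. Cish (ENSMUSG00000032578) lies at 107296026 to 107302784 of chromosome 9 and Socs2 (ENSMUSG00000020027) at 95385362 to 95417180 of chromosome 10. Socs1 (ENSMUSG00000038037) lies at 10782240 to 10785536 of chromosome 16 and Socs3 (ENSMUSG00000053113) at 117966079 to 117970047 of chromosome 11. All 10 genes are protein-coding, and the values were deposited per gene, not per transcript. How they were summed over exons is not given in the sources used here.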

How the data were processed

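Expression of 54532 Ensembl genes was deposited as FPKM, 1 column for each library, per the file headers. The builds GRCm38 and mm10 and edgeR 3.18.1 are named per the submitters' processing notes, without a role. Nothing used here names the aligner, counting tool, annotation, strand setting or filters. The table's 10 unnamed columns were empty. Symbols, coordinates and union exon lengths came from GENCODE M21, which 54495 identifiers matched.

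Of the values above 0, 96.3 to 96.4% per library became whole reads (to within 0.02) when FPKM was multiplied by exon length. For Pim1, Socs5 and Socs6 it did not, so their reads were approximate. These reads were used for voom, after rounding.

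The R and vehicle libraries were compared on log2(FPKM + 1) in limma 3.58.1 under the statistics software R 4.3.3. Group was the only term, the variance followed a trend with level, and p-values were Benjamini-Hochberg adjusted over 12176 genes averaging 1 FPKM or more. There were 2 residual and 3.83 prior degrees of freedom. In 1 test on simulated data the share of false calls was above the adjusted p threshold. Every one of the 10 genes was named. In other lists the called genes and the 2 with the smallest p were named, and for the gene with the smallest p among the 10 the 3 nearest genes. Results of 2 list genes are not reported here. The genes and lists were chosen with earlier results of these data known. The alternatives were a pseudocount of 0.1, other filters, TPM and quantile scaling, voom, a correction for gene length, a replicate block and each library left out. Motifs were searched in RefSeq promoter windows with Python 3.11.15.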

Additional observations from a re-analysis of the deposited data

How the results depend on the processing

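Of the 10 genes, 9 kept the direction of their difference in each alternative that tested them. A minimum mean of 5 FPKM left 5 of them untested, Socs1, Socs2, Socs4, Socs7 and Cish. Socs4 reversed without R replicate 2 and without vehicle replicate 1, at -0.12 and -0.05 against 0.09, with a range of -0.12 to 0.30 when 1 library was left out. Genes called lower among the 10 numbered 1, against 0 without a filter and on the TPM scale, and 2 with voom or the length correction. Higher calls numbered 0 throughout. The log2 fold change of Pim1 was -0.89 without a filter (limma, Benjamini-Hochberg adjusted p = 0.1) and -0.79 on the TPM scale, uncalled in both. With 1 library left out it ran from -0.92 to -0.87. Such a fit has 1 library in a group, so its calls cannot show whether a result depends on the library left out. Socs2 was newly called with voom (-1.24) and the length correction (-0.75). The log2 fold change of Socs6 ran from -0.63 to -0.26 over the libraries left out.

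The replicate numbers are not said to mark a shared animal or batch. Differences between replicates 1 and 2 correlated at 0.353 over genes between the groups. With a replicate block, 4 of the 10 genes were called lower. Pim1 stayed called, and Socs2 (-0.72), Socs6 (-0.44) and Cish (-0.49) passed. Of the other pathway genes, 7 were called higher and 32 lower with the block, and of all genes 891 and 1009.

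For the other pathway genes, the counts of 0 higher and 14 lower became 1 and 23 with the length correction, and 0 lower without a filter. They ran from 0 to 6 higher and from 11 to 26 lower with 1 library left out. For all genes, the counts of 42 higher and 167 lower became 0 and 0 without a filter on low values in limma, with 2767 of 24958 genes at an unadjusted p under 0.05. They became 85 higher with voom and 209 and 346 with the length correction, which put 62.3% of calls on the lower side against 79.9%. The TPM scale put 68.1% there and shifted the median log2 fold change of all genes to 0.13. The replicate block put 53.1% there, and without R replicate 2 more genes were called higher than lower. With 1 library left out, 96 to 438 genes were called higher and 193 to 665 lower. The cause of these changes was not tested. Socs1, Cish and Socs2 rested on 36 to 373 reads per library, which limits their precision.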
